A study of Rattus norvegicus with 9 samples.

Results

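Heat shock chaperones, proteins that keep other proteins folded, were examined in rat kidney after 7 days of treatment with colistin methanesulfonate sodium (CMS), from which the antibiotic colistin is released in the body. The 10 genes named were Hsph1, Hspa4, Hspa8, Dnajb1, Hsp90aa1, Hsp90ab1, Chordc1, Hspd1, Hspe1 and Hspb1. A probe set, the group of short probes that reads 1 transcript on an Affymetrix array, counted for a gene if the array annotation listed it with exactly that gene. By this rule 8 of the 10 genes had 11 probe sets, out of 20826 probe sets with 1 gene, and all 8 passed the intensity minimum that left 10337 genes for testing. Hspa8 and Hsp90aa1 had only probe sets listed together with another gene, and those are described apart. The genes were chosen with their differences from vehicle already known, so those differences are given as a description, without p-values. The difference between the doses follows from them, so its p-values are a description of chosen genes too.

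The animals were Sprague-Dawley rats, an outbred stock, 8 weeks old when bought and acclimated for 1 week, injected intraperitoneally once a day. Vehicle rats received saline (0 mg/kg) and their kidneys had no lesion per the labels. CMS25 rats received 25 mg/kg and had basophilic and dilated tubules. CMS50 rats received 50 mg/kg and had necrosis, degenerating or dilated tubules and casts. Each group held 3 rats with 1 array of whole right kidney per rat, called biological replicates in the labels. Values are deposited log2 intensities, in which a difference of 1 is a 2-fold change.

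Heat shock chaperones bind unfolded proteins and help them to fold, and many of their genes are switched on by heat shock factor 1 when unfolded proteins accumulate. The factor binds heat shock elements, runs of the unit NGAAN in alternating orientation. HSP70 proteins cycle on their clients with J-domain partners and exchange factors, HSP90 proteins mature kinases and steroid receptors with co-chaperones, and the chaperonin of Hspd1 and Hspe1 folds proteins inside mitochondria. In kidney tubules these proteins are known for their induction by ischaemic and toxic injury.

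Heat shock elements were searched as letters in promoter windows of the RefSeq assembly GRCr8, each 300 bases long with 250 before and 50 after the annotated start. These windows are shown as a description, and a relation between the elements and how the RNA followed the dose was not tested. Of the 10 genes, 9 were in the promoter table, and Hsp90aa1 was not. The upstream 250 bases of Hsph1 (chr12:10427118-10427367, plus strand), Hspe1 (chr9:64084077-64084326, plus strand) and Dnajb1 (chr19:41431142-41431391, minus strand) are given 5′ to 3′, with alternating GAA and TTC units in capitals.
Hsph1: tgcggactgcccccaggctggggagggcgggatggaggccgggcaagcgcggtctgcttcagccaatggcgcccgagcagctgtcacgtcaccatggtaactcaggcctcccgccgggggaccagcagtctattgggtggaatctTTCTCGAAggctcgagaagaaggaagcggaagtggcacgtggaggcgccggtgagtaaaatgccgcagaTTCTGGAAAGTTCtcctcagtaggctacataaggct
Hspe1: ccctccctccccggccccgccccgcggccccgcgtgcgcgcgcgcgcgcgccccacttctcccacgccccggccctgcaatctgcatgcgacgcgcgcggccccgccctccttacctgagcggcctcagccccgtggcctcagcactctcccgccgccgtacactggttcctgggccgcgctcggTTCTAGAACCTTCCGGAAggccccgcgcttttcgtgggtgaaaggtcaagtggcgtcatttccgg
Dnajb1: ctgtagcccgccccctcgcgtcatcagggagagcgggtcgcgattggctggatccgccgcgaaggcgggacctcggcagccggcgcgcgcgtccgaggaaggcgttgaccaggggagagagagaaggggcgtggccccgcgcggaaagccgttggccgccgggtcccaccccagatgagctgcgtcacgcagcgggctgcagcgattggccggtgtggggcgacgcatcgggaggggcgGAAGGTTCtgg
The 3-unit match of Hsph1 lies 36 to 24 bases before the start, and a 2-unit match lies at 105 to 98 bases before it. The 4-unit match of Hspe1 lies 65 to 48 bases before its start. Hspd1 is read from the other strand, its window shares 211 bases with that of Hspe1, and the same letters lie 242 to 225 bases before its start.

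Shorter stretches show the remaining matches of the genes whose values are described in most detail. The Chordc1 stretch (chr8:23650829-23650854, plus strand) lies after the start and the others before or after it as stated.
Chordc1, bases 11 to 33 after the start: cgGAACGTTCGGGAAGATTCCTGAAg
Hspd1, 242 to 225 bases before the start (chr9:64084258-64084283, minus strand): ggccTTCCGGAAGGTTCTAGAAccga
Dnajb1, bases 18 to 25 after the start (chr19:41431108-41431133, minus strand): cgggatctgGAAGCTTCcgccggacg
Hspb1, 129 to 122 bases before the start (chr12:26432414-26432439, minus strand): tcaactagaGAAGTTTCcagatgggg
Hspb1, 109 to 102 bases before the start (chr12:26432394-26432419, minus strand): atgggggcaGAACCTTCctggccctg
Both orders of the units were searched, so both strands were covered, and each longer run also holds the shorter ones. A 2-unit match (GAANNTTC or TTCNNGAA) was in 7 of the 9 windows and in 15.9% of all 33469 windows. A 3-unit match, with 3 alternating units separated by 2 bases each, was in 5 of the 9 and in 0.798% of all windows. A 4-unit match was in 3 of the 9, those of Chordc1, Hspd1 and Hspe1, and in 0.0478% of all windows. Hspd1 and Hspe1 share 1 site, which is counted for both genes at 2, 3 and 4 units. The 5-unit match of Chordc1 was 1 of 3 such windows in the whole table (0.00896%). Hsp90ab1 and Hspa4 had no match in this window. A match of letters is a description and does not show binding.

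At CMS25 all 8 chaperones had a lower mean than in vehicle kidneys, and at CMS50 the set divided. Hsph1, Chordc1 and Dnajb1 had every CMS25 array and every CMS50 array below every vehicle array. Such an order was found in 280 of the 10337 genes, which is 2.71%, and in the opposite direction in 208 genes (2.01%). Hsp90ab1 was lower at CMS25, while 1 of its 2 probe sets was at the vehicle level at CMS50. Hspb1 was below vehicle at CMS25 and above it in 2 of 3 CMS50 arrays. Hspd1 and Hspe1 overlapped with vehicle at CMS25 and lay below all vehicle arrays at CMS50, with differences of -0.15 and -0.25 there, and Hspa4 overlapped with vehicle at both doses. In whole kidney, fewer cells of a type and less RNA per cell cannot be told apart. The plot of the 8 chaperones by array shows these patterns.

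**Figure D1:**
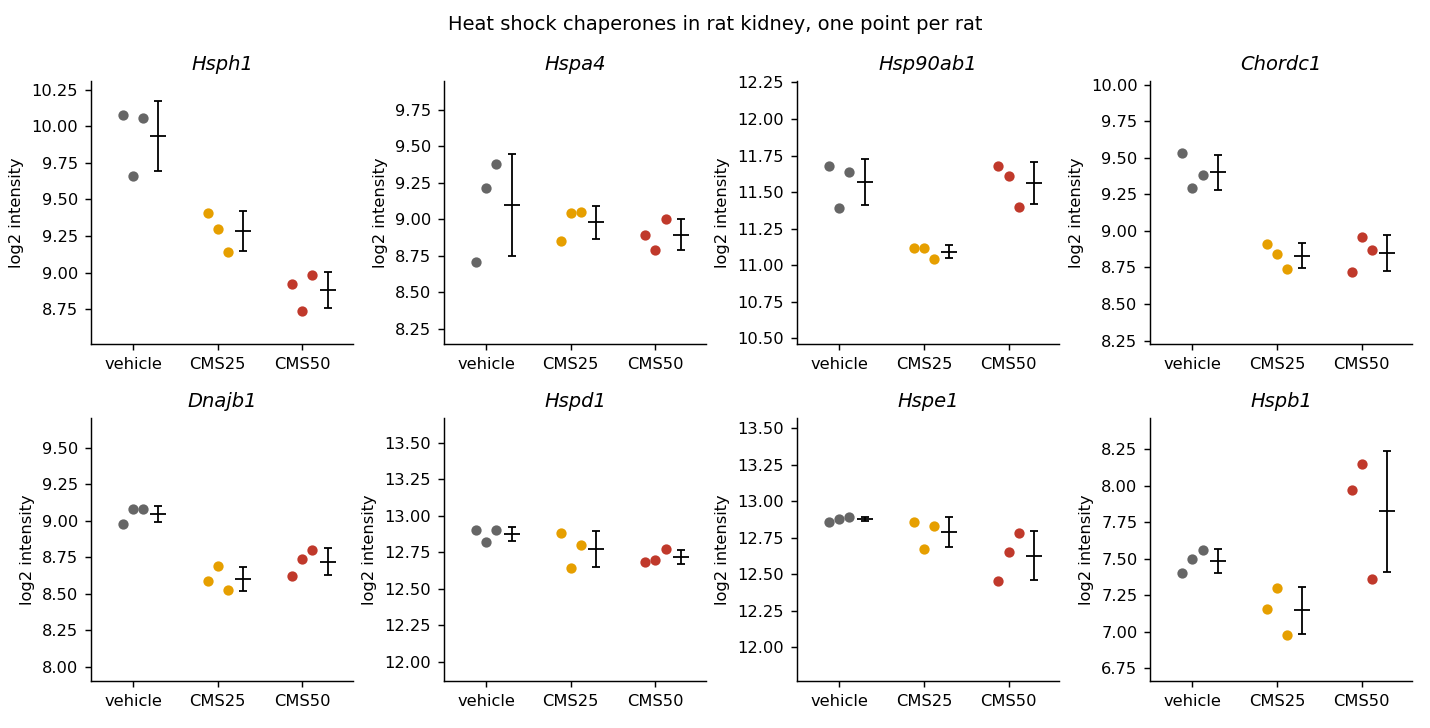
Log2 intensity (y axis) of the 8 chaperones with a probe set of their own, in vehicle, CMS25 and CMS50 kidneys (x axis), 1 point per rat, with the mean and SD of 3 rats as a bar beside the points. Every panel spans the same number of log2 units. Points of Hsph1, Chordc1 and Dnajb1 at both doses lie below all vehicle points, and those of Hspb1 at CMS50 spread from 7.36 to 8.15.

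Hsph1 encodes an HSP110 protein, an exchange factor that resets HSP70 and holds unfolded clients. Its probe set with the highest mean (1388898_at) read 10.08, 9.66 and 10.06 in vehicle kidneys, 9.41, 9.30 and 9.14 at CMS25, and 8.92, 8.74 and 8.98 at CMS50. The 3 groups did not overlap and were ordered by dose. The share of all genes in this order was not counted. It lies within the 2.71% with all CMS arrays below all vehicle arrays. The mean was 9.93 ± 0.24 in vehicle, 9.28 ± 0.14 at CMS25 and 8.88 ± 0.13 at CMS50 (SD, n = 3 each). CMS25 minus vehicle was -0.65 (SE 0.13, 95% interval -0.95 to -0.35), a 1.57-fold lower intensity. CMS50 minus vehicle was -1.05 (SE 0.13, 95% interval -1.36 to -0.75), a 2.07-fold lower intensity, the largest difference of the 8 at each dose. The second Hsph1 probe set (1385620_at) showed the same order, with 8.40, 7.75 and 8.11 in vehicle, 7.62, 7.08 and 6.88 at CMS25, and 6.69, 6.67 and 6.73 at CMS50. Its differences from vehicle were -0.90 at CMS25 and -1.39 at CMS50.

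Hspa4 encodes a related HSP110 protein. It read 8.71, 9.21 and 9.38 in vehicle kidneys, 8.85, 9.04 and 9.05 at CMS25, and 8.89, 8.79 and 9.0 at CMS50. All groups overlapped, and vehicle replicate 1 was the lowest of the 9 arrays. CMS25 minus vehicle was -0.12 (SE 0.16, 95% interval -0.48 to 0.24) and CMS50 minus vehicle was -0.21 (SE 0.16, 95% interval -0.57 to 0.15). Leaving out vehicle replicate 1 moved these to -0.31 and -0.40, and other single arrays moved them to at most 0.02 and -0.07.

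Hspa8, the constitutive HSP70 protein of the cytosol, had 1 probe set (1398240_at), which the annotation lists with Haus8l2 as well. It read 13.83, 13.73 and 13.93 in vehicle kidneys, 13.58, 13.64 and 13.62 at CMS25, and 13.77, 13.76 and 13.65 at CMS50. All CMS25 arrays were below all other arrays, and CMS50 overlapped with vehicle. The differences from vehicle were -0.22 at CMS25 and -0.10 at CMS50, and they cannot be given to either gene.

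Dnajb1 encodes a J-domain protein that delivers clients to HSP70 and triggers its ATPase. Probe set 1388722_at read 8.98, 9.08 and 9.08 in vehicle kidneys, 8.59, 8.69 and 8.53 at CMS25, and 8.62, 8.74 and 8.80 at CMS50. All 6 CMS arrays were below all vehicle arrays, and the doses overlapped with each other. The Dnajb1 difference CMS25 minus vehicle was -0.44 (SE 0.09, 95% interval -0.63 to -0.25) and CMS50 minus vehicle was -0.33 (SE 0.09, 95% interval -0.52 to -0.13). The dimmer probe set 1383302_at had differences of -0.25 and -0.33, and its CMS25 arrays (7.13, 6.68 and 6.92) overlapped with vehicle (7.10, 7.08 and 7.30). At CMS50 it read 6.76, 6.74 and 6.99, below all vehicle arrays.

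Hsp90ab1 encodes the constitutive cytosolic HSP90 protein. Probe set 1375336_at read 11.68, 11.39 and 11.64 in vehicle kidneys, 11.12, 11.12 and 11.04 at CMS25, and 11.68, 11.61 and 11.40 at CMS50. The CMS25 arrays were below all others, and the CMS50 arrays overlapped with vehicle. CMS25 minus vehicle was -0.47 (SE 0.11, 95% interval -0.72 to -0.23), and CMS50 minus vehicle was -0.0094 (SE 0.11, 95% interval -0.25 to 0.24). The second probe set (1375335_at) gave another answer at the higher dose. It read 11.07, 10.60 and 10.77 in vehicle, 10.36, 10.19 and 10.43 at CMS25, and 10.67, 10.25 and 10.29 at CMS50. Its differences from vehicle were -0.48 at CMS25 and -0.41 at CMS50, with 1 CMS50 array inside the vehicle range. With the mean of the 2 probe sets, CMS50 minus vehicle was -0.21.

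Hsp90aa1, the stress-inducible HSP90 protein, was read by 2 probe sets that the annotation shares between the gene and its pseudogene Hsp90aa1-ps17. Probe set 1372701_at read 12.48, 12.32 and 12.36 in vehicle kidneys, 11.95, 11.84 and 11.68 at CMS25, and 12.16, 12.12 and 11.93 at CMS50. Probe set 1388850_at read 11.80, 11.61 and 11.75 in vehicle, 11.06, 10.67 and 10.88 at CMS25, and 11.20, 10.98 and 10.72 at CMS50. In each, all CMS arrays were below all vehicle arrays and the doses overlapped. The differences from vehicle were -0.56 at CMS25 and -0.32 at CMS50 for the first, and -0.85 and -0.76 for the second.

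**Figure D2:**
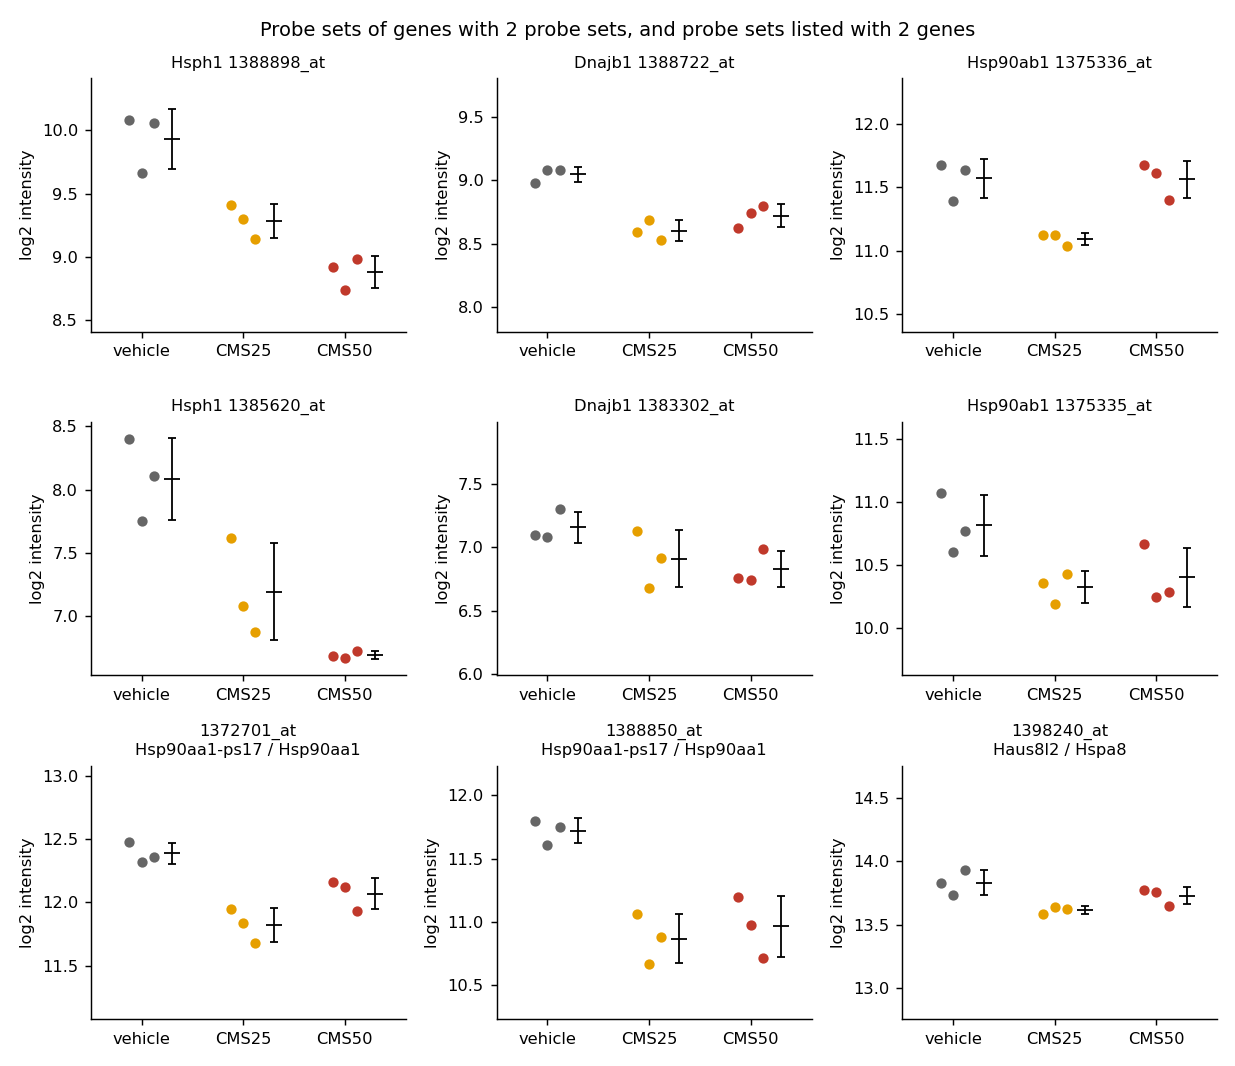
Log2 intensity (y axis) by group (x axis) for the 2 probe sets each of Hsph1, Dnajb1 and Hsp90ab1 (top and middle rows) and for the 3 probe sets listed with 2 genes (bottom row), 1 point per rat, with mean and SD of 3 rats. For Hsp90ab1, probe set 1375335_at stays low at CMS50 (10.67, 10.25 and 10.29) and probe set 1375336_at does not (11.68, 11.61 and 11.40).

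Chordc1 encodes a co-chaperone that binds HSP90 through its CHORD domains. It read 9.53, 9.29 and 9.38 in vehicle kidneys, 8.91, 8.84 and 8.74 at CMS25, and 8.72, 8.96 and 8.87 at CMS50. All CMS arrays were below all vehicle arrays, and the doses overlapped. For Chordc1, CMS25 minus vehicle was -0.57 (SE 0.10, 95% interval -0.80 to -0.35) and CMS50 minus vehicle was -0.55 (SE 0.10, 95% interval -0.77 to -0.32).

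Hspd1 encodes the barrel and Hspe1 the lid of the mitochondrial chaperonin, and the genes lie head to head. Hspd1 read 12.90, 12.82 and 12.90 in vehicle kidneys, 12.88, 12.64 and 12.80 at CMS25, and 12.68, 12.70 and 12.77 at CMS50. Hspe1 read 12.86, 12.88 and 12.89 in vehicle, 12.86, 12.67 and 12.83 at CMS25, and 12.45, 12.65 and 12.78 at CMS50. In both genes the CMS50 arrays were below all vehicle arrays and the CMS25 arrays overlapped with vehicle. CMS50 minus vehicle was -0.15 (SE 0.09, 95% interval -0.35 to 0.04) for Hspd1. The same difference was -0.25 (SE 0.10, 95% interval -0.48 to -0.02) for Hspe1. In turn, CMS25 minus vehicle was -0.10 for Hspd1 and -0.09 for Hspe1. Under cyclic loess scaling CMS50 minus vehicle of Hspd1 was -0.065.

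Hspb1 encodes a small heat shock protein that holds unfolded proteins and binds actin. It read 7.40, 7.50 and 7.56 in vehicle kidneys, 7.16, 7.30 and 6.98 at CMS25, and 7.97, 8.15 and 7.36 at CMS50. All CMS25 arrays were below all vehicle arrays. CMS50 replicates 1 and 2 were above them and replicate 3 was just below. For Hspb1, CMS25 minus vehicle was -0.34 (SE 0.19, 95% interval -0.76 to 0.08) and CMS50 minus vehicle was 0.34 (SE 0.19, 95% interval -0.08 to 0.76). Without CMS50 replicate 3 CMS50 minus vehicle was 0.58, and without CMS50 replicate 2 it was 0.18.

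Over the 8 chaperones the median of CMS25 minus vehicle was -0.39, and 8 of 8 differences were negative, against a median of -0.02 and 56.5% negative over all 10337 genes. For CMS50 minus vehicle the median was -0.23 and 7 of 8 were negative, against 0.05 and 43.8% over all genes. The arrays of CMS25 lay below all vehicle arrays for 5 of the 8, Hsph1, Chordc1, Dnajb1, Hsp90ab1 and Hspb1, beside 7.65% of all genes. The CMS50 arrays did so for 5 of the 8, Hsph1, Chordc1, Dnajb1, Hspd1 and Hspe1, beside 19.1%. Over all genes, limma called 31.1% at CMS50 at adjusted p under 0.05, 11.4% lower and 19.6% higher. At CMS25, limma called 0 of all genes (0.0%), also in each of 19 alternatives, while 604 genes (5.84%) had an unadjusted p under 0.05. These comparisons share the vehicle arrays, and the members were chosen with them known, so nothing is read from the counts.

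**Figure D3:**
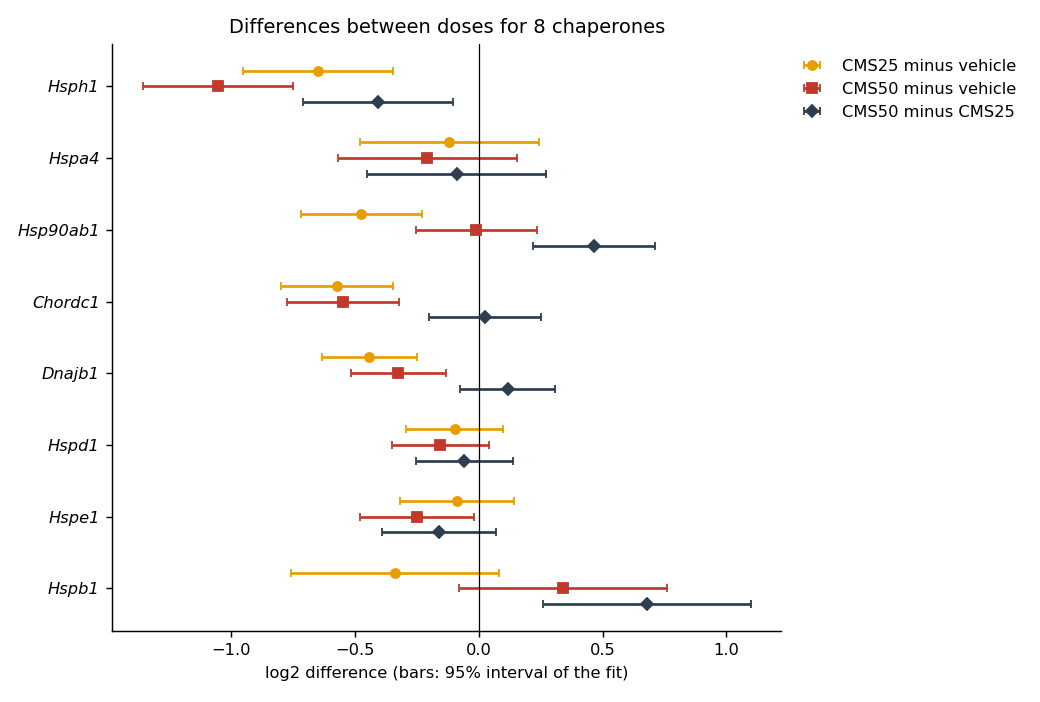
Log2 differences (x axis) of the 8 chaperones (y axis) for CMS25 minus vehicle, CMS50 minus vehicle and CMS50 minus CMS25, with bars for the 95% interval of the limma fit. Hsph1 is at -0.65 and -1.05 against vehicle, while Hspb1 is at -0.34 and 0.34.

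Whether the doses differed was tested directly as CMS50 minus CMS25, with p-values adjusted over all 10337 genes. That test shares its arrays with the comparisons to vehicle, and the genes were chosen with those differences known. Its p-values are therefore not independent support and describe chosen genes only. For Hsph1 the difference was -0.405 (SE 0.13, 95% interval -0.71 to -0.10, adjusted p = 0.0481). Hsp90ab1 was higher at CMS50 than at CMS25 by 0.46 (SE 0.11, 95% interval 0.22 to 0.71, adjusted p = 0.0138), and Hspb1 by 0.68 (SE 0.19, 95% interval 0.26 to 1.10, adjusted p = 0.0247). These 3 of 8 calls, 1 lower and 2 higher, stand beside 30.3% of all genes called in this comparison, 9.43% lower and 20.8% higher. The arrays of CMS50 lay below all CMS25 arrays for Hsph1, as in 15.3% of all genes, and above them for Hsp90ab1 and Hspb1, as in 30.4%. The median over the 8 was -0.017, and 4 of 8 were negative, against 0.07 and 41.7% over all genes.

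Each of these 3 calls depended on single arrays or settings. The Hsph1 call was lost in 10 of 19 alternatives, with adjusted p between 0.0282 and 0.155 over all of them. It was lost without vehicle replicate 1 or 3, without any 1 of the CMS25 arrays, and without CMS50 replicate 1 or 2, where the difference ran from -0.48 to -0.34 over all arrays left out. It was also lost with no intensity filter, with the mean of probe sets and with each probe set tested. The second Hsph1 probe set gave -0.49 (95% interval -0.95 to -0.03, adjusted p = 0.0980). The Hsp90ab1 call was lost without CMS50 replicate 1 (0.41, adjusted p = 0.0536), without CMS50 replicate 2 (0.44, adjusted p = 0.0529) and with the mean of its probe sets (0.27, adjusted p = 0.115), within a range of 0.00699 to 0.115. Its second probe set gave 0.073 (95% interval -0.27 to 0.41, adjusted p = 0.744). The Hspb1 call did not hold when only CMS50 and CMS25 were fitted (adjusted p = 0.0572), without CMS25 replicate 1 (0.69, adjusted p = 0.0527) or 3 (0.59, adjusted p = 0.0781), and without CMS50 replicate 1 (0.61, adjusted p = 0.0852) or 2 (0.52, adjusted p = 0.0855), within a range of 0.00124 to 0.0855.

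For the other 5 chaperones the difference between the doses did not pass the threshold, and the intervals bound it. They ran from -0.20 to 0.25 for Chordc1 (difference 0.02, adjusted p = 0.872), from -0.08 to 0.31 for Dnajb1 (0.12, adjusted p = 0.318), and from -0.45 to 0.27 for Hspa4 (-0.09, adjusted p = 0.699). Hspd1 had an interval from -0.25 to 0.14 (difference -0.06, adjusted p = 0.638) and Hspe1 from -0.39 to 0.07 (difference -0.16, adjusted p = 0.249). No interval of these 5 shows that the doses act alike, and each leaves room for a difference of at least 0.25 in size.

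The wider chaperone system was described with lists of 146 further genes, of which 127 were measured. At CMS50 against vehicle, 17 rose and 26 fell, 33.9% of the measured genes, beside 31.1% of all genes, 19.6% higher and 11.4% lower. The counts of each list below are set beside the same 31.1%, and no list was tested as a set. The lists were chosen with earlier results of these data known, so their counts describe chosen genes. At CMS25 none passed the test. Between the doses, 27 were higher and 17 lower at CMS50 (34.6%, beside 30.3% of all genes). The median of CMS50 minus vehicle over the 127 genes was -0.01 and of CMS25 minus vehicle -0.07. Leaving out single arrays reduced the calls against vehicle to as few as 16 (without CMS50 replicate 2), 17 without CMS50 replicate 1 or vehicle replicate 2, 23 without vehicle replicate 1 and 26 without vehicle replicate 3.

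**Figure D4:**
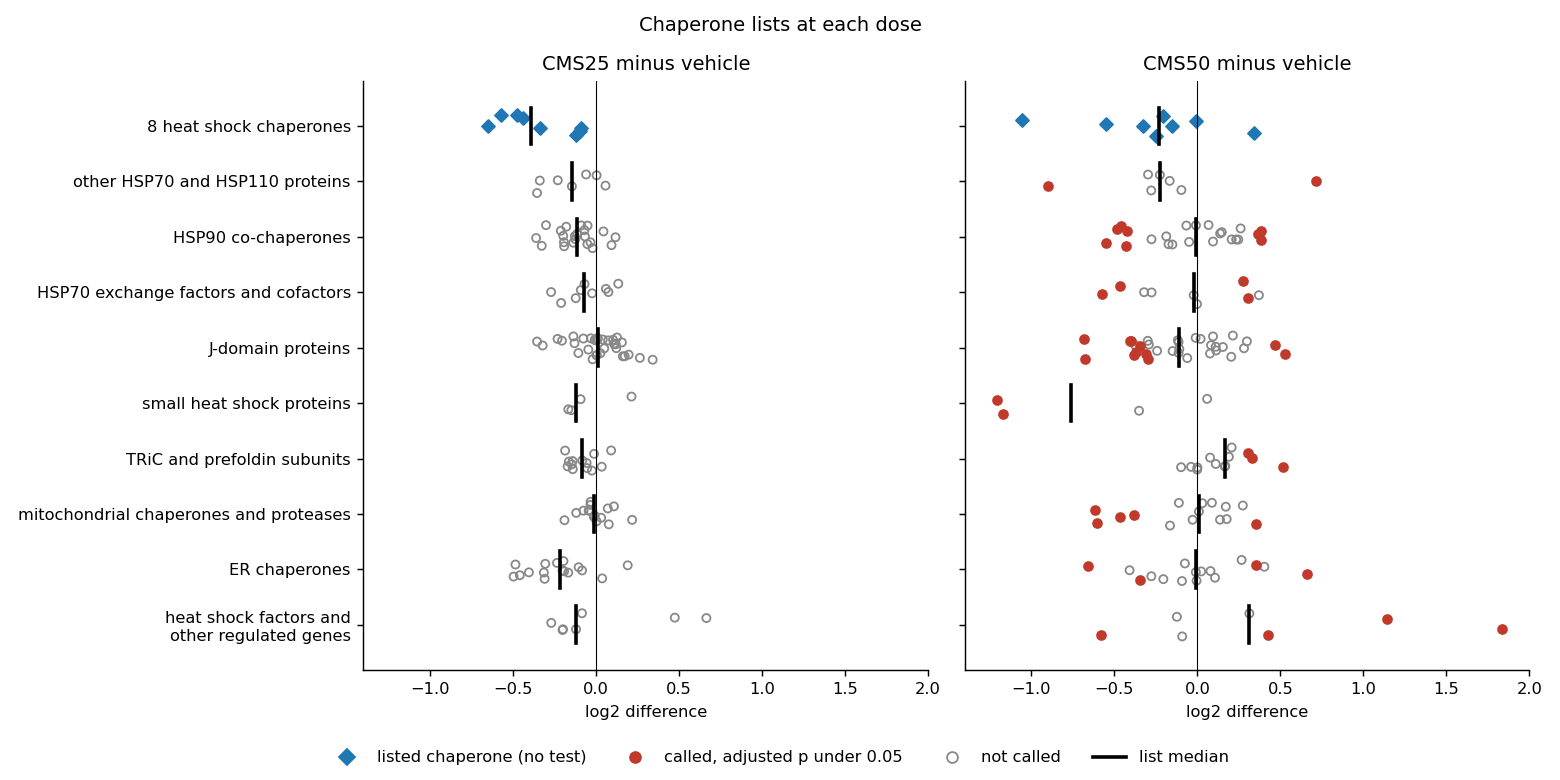
Log2 differences (x axis) of the genes in each chaperone list (y axis) for CMS25 minus vehicle (left) and CMS50 minus vehicle (right), with filled points for called genes, open points for the others, diamonds for the 8 chaperones, which carry no test here, and a bar for the list median. No point is filled at CMS25. At CMS50 the small heat shock proteins, 4 genes without Hspb1, have the lowest median (-0.76). The heat shock factors and other regulated genes, 7 genes, have the highest (0.31).

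Among other HSP70 and HSP110 proteins, 1 of 7 rose and 1 fell at CMS50 (28.6% called, beside 31.1% of all genes). Hspa12a, a distant HSP70 relative, fell by 0.90 (SE 0.17, adjusted p = 0.00580) and Hspa2, known for its role in sperm formation, rose by 0.72 (SE 0.24, adjusted p = 0.0457). Hspa1a, a stress-inducible HSP70 protein, had a difference of -0.28 (adjusted p = 0.104). It has a near-identical copy, Hspa1b, with no probe set of its own, so which of them was read is uncertain. In the small heat shock protein list, 2 of 4 fell and 0 rose (50.0% called, beside 31.1% of all genes). Hspb6, a small heat shock protein of muscle, changed by -1.17 (SE 0.23, adjusted p = 0.00717) and Cryab, the lens and muscle protein alpha-B crystallin, by -1.20 (SE 0.40, adjusted p = 0.0479). Hspb6 read 8.22, 8.30 and 8.35 in vehicle kidneys, 7.85, 8.64 and 7.88 at CMS25, and 7.30, 6.70 and 7.36 at CMS50. Its CMS50 arrays were the 3 lowest, and its CMS25 arrays lay around the vehicle range. Cryab read 11.25, 9.61 and 11.31 at CMS25, and its CMS50 arrays (9.31, 9.75 and 9.78) overlapped with these. The single HSP70 rise was lost without vehicle replicate 1 or 3, CMS25 replicate 1 or 3, or any CMS50 array, and the single fall became 2 without CMS25 replicate 2 or 3. The 2 falls among small heat shock proteins became 1 without any 1 of the vehicle or CMS50 arrays.

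Of 9 HSP70 exchange factors and cofactors, 2 rose and 2 fell at CMS50 (44.4% called, beside 31.1% of all genes). Sil1, an exchange factor of the endoplasmic reticulum, changed by -0.58 (SE 0.13, adjusted p = 0.0101) and St13, a cofactor that binds HSP70, by -0.46 (SE 0.14, adjusted p = 0.0321). Hspbp1, an exchange factor, rose by 0.31 (adjusted p = 0.0476) and Bag6, a triage factor for membrane proteins, by 0.28 (adjusted p = 0.0337). Bag3, an exchange factor for stressed cells, differed by -0.32 (adjusted p = 0.0800). Of 33 J-domain proteins, 2 rose and 9 fell (33.3% called, beside 31.1% of all genes). Dnajb6, which suppresses aggregation, changed by -0.68 (SE 0.10, adjusted p = 0.00312) and Dnaja4 by -0.67 (SE 0.13, adjusted p = 0.00717). Dnaja1 changed by -0.38 (adjusted p = 0.0348). Dnajc9, a histone chaperone, rose by 0.53 (SE 0.12, adjusted p = 0.0101) and Dnajc13, of endosomes, by 0.47 (adjusted p = 0.0251). The 9 J-domain falls became 2 without CMS50 replicate 2, 3 without CMS50 replicate 1 or vehicle replicate 2, 4 without vehicle replicate 3 and 5 without vehicle replicate 1, and the 2 rises became 1 without vehicle replicate 2 or 3 or CMS50 replicate 2. Among the exchange factors, the 2 rises became 0 without vehicle replicate 1 or 2 or CMS50 replicate 1 or 2, and 1 without CMS25 replicate 3. The 2 falls there became 1 without any vehicle array or CMS50 replicate 1 or 2.

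Of 23 HSP90 co-chaperones, 3 rose and 5 fell at CMS50 (34.8% called, beside 31.1% of all genes). Ppid, a cyclophilin, changed by -0.55 (SE 0.08, adjusted p = 0.00288), with readings of 9.52, 9.59 and 9.61 in vehicle, 9.35, 9.26 and 9.21 at CMS25, and 9.07, 9.04 and 8.96 at CMS50. Like Hsph1, it had 3 groups ordered by dose without overlap. Ppp5c, a phosphatase, changed by -0.48 (adjusted p = 0.0211), Ptges3l1 by -0.46 (adjusted p = 0.0273) and Cdc37l1 by -0.43 (adjusted p = 0.0300). Stip1, which links HSP70 to HSP90, differed by -0.07 (adjusted p = 0.663), and Ahsa1, an activator of HSP90, by -0.28 (adjusted p = 0.0860). The TRiC and prefoldin list, the cytosolic chaperonin for actin and tubulin, had 3 rises and 0 falls among 13 (23.1%, beside 31.1%). Cct4 rose by 0.52 (SE 0.11, adjusted p = 0.00997), Cct5 by 0.33 (adjusted p = 0.0222) and Cct7 by 0.31 (adjusted p = 0.0397), while Cct2 differed by -0.04 and Tcp1 by 0.19, neither past the test. The 3 rises of each list became 1 without vehicle replicate 1 or 2 or CMS50 replicate 1 or 2. The 5 co-chaperone falls became 1 without vehicle replicate 2 or CMS50 replicate 1, 2 without vehicle replicate 1 or CMS50 replicate 2, and 3 without vehicle replicate 3 or CMS50 replicate 3.

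Of 15 mitochondrial chaperones and proteases, 1 rose and 4 fell at CMS50 (33.3% called, beside 31.1% of all genes). Dnaja3, a J-domain partner of mitochondrial HSP70, changed by -0.62 (SE 0.12, adjusted p = 0.00609), and that HSP70 itself, Hspa9, by -0.38 (SE 0.13, adjusted p = 0.0481). The unfoldases Clpx and Clpb changed by -0.60 (adjusted p = 0.0166) and -0.47 (adjusted p = 0.0367). Of 16 chaperones of the endoplasmic reticulum, 2 rose and 2 fell (25.0% called, beside 31.1% of all genes). Serpinh1, the collagen chaperone, rose by 0.66 (SE 0.18, adjusted p = 0.0218) and P4hb, a disulfide isomerase, by 0.35 (SE 0.08, adjusted p = 0.0139). Hyou1, an HSP110 relative, changed by -0.66 (SE 0.15, adjusted p = 0.0106) and Dnajb11 by -0.34 (adjusted p = 0.0254). Hspa5 and Hsp90b1, the main HSP70 and HSP90 proteins of that compartment, differed by -0.20 (adjusted p = 0.189) and -0.08 (adjusted p = 0.566). The 4 mitochondrial falls became 1 without vehicle replicate 2 or CMS50 replicate 1 or 2, and 2 without vehicle replicate 3, and the single rise was lost without vehicle replicate 1 or 2 or CMS50 replicate 1 or 2. In the endoplasmic reticulum list the 2 rises became 1 without any vehicle array or CMS50 replicate 1 or 2, and the 2 falls became 1 without vehicle replicate 1 or 2 or CMS50 replicate 1 or 2.

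The last list held heat shock factors and genes known to respond to temperature. At CMS50, 3 of 7 rose and 1 fell (57.1% called, beside 31.1% of all genes). This list too was chosen with earlier results known, so its share and p-values are not independent support. The factors Hsf1 and Hsf2 differed by -0.09 (adjusted p = 0.569) and -0.12 (adjusted p = 0.292), while Hsbp1, which binds heat shock factor 1, changed by -0.58 (SE 0.11, adjusted p = 0.00592). Tra2a, a splicing factor, rose by 0.43 (adjusted p = 0.0270). Cirbp and Rbm3 encode RNA-binding proteins whose RNA is known to be raised by mild cold and lowered by heat in mammalian cells. Cirbp read 7.76, 8.07 and 7.99 in vehicle kidneys, 8.60, 8.58 and 8.62 at CMS25, and 8.99, 9.14 and 9.11 at CMS50. Rbm3 read 9.33, 9.67 and 9.26 in vehicle, 9.96, 9.92 and 9.80 at CMS25, and 11.18, 11.57 and 11.01 at CMS50. In both genes the 3 groups did not overlap and were ordered by dose, upwards where Hsph1 was ordered downwards. This order was not particular to them. P4hb of the endoplasmic reticulum list had it too, with 11.57 to 11.68 in vehicle, 11.70 to 11.92 at CMS25 and 11.94 to 11.99 at CMS50. The share of all genes in this upward order was not counted. It lies within the 2.01% with all CMS arrays above all vehicle arrays. A link of these rises to temperature or to the fall of Hsph1 was not tested.

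At CMS50 Cirbp rose by 1.14 (SE 0.10, adjusted p = 0.000613) and Rbm3 by 1.84 (SE 0.16, adjusted p = 0.000613). At CMS25 the differences were 0.67 for Cirbp (SE 0.10, adjusted p = 0.523) and 0.47 for Rbm3 (SE 0.16, adjusted p = 0.765), which did not pass. From CMS25 to CMS50 the difference was 0.48 for Cirbp (adjusted p = 0.00846) and 1.36 for Rbm3 (adjusted p = 0.00166). The rises at CMS50 held in all 19 alternatives, with adjusted p from 0.000259 to 0.00398 for Cirbp and from 0.000201 to 0.00434 for Rbm3. The promoter windows of Cirbp and Rbm3 held no 2-unit match, which 15.9% of all windows held. Those of Hsp90ab1 and Hspa4 held none either.

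**Figure D5:**
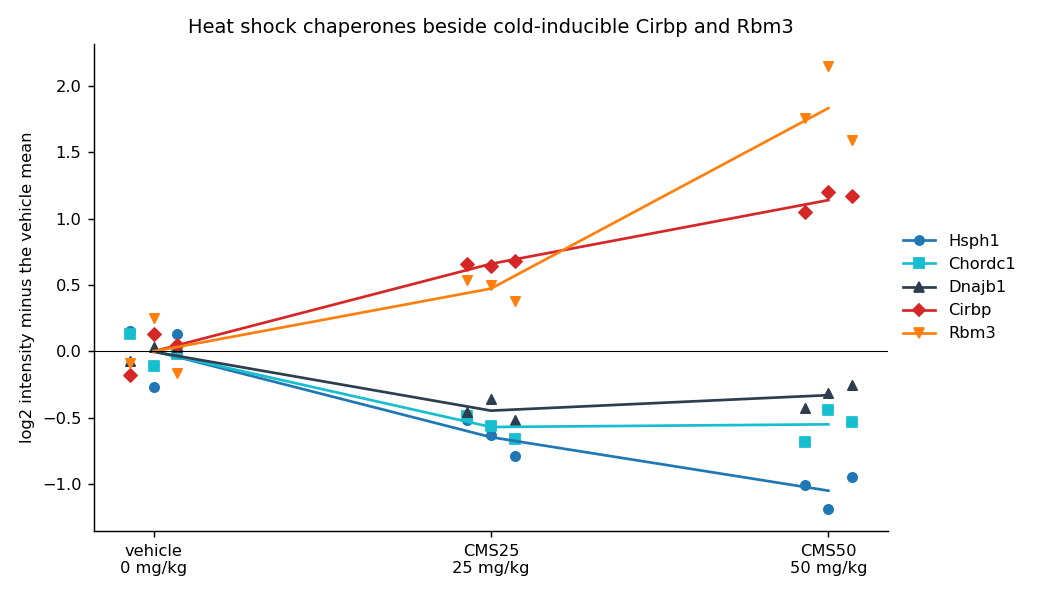
Log2 intensity minus the gene's vehicle mean (y axis) at 0, 25 and 50 mg/kg (x axis) for Hsph1, Chordc1, Dnajb1, Cirbp and Rbm3, with 1 point per rat and lines through the group means. Hsph1 reaches -1.05, Cirbp 1.14 and Rbm3 1.84 at the highest dose, while Chordc1 and Dnajb1 lie at -0.55 and -0.33 there.

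Of the genes named from these lists, the calls of Hspa12a, Ppid, Sil1, Dnajb6, Dnaja4, Dnajc9, Hspb6, Cct4, Dnaja3, P4hb, Hsbp1, Cirbp and Rbm3 held in all 19 alternatives, with adjusted p up to 0.04997 (P4hb). The Hyou1 call held in the 17 alternatives that gave a value for it, and it had none with an intensity minimum of 6 or with the mean of all probe sets of a gene. The other 18 calls were each lost without CMS50 replicate 1 or without CMS50 replicate 2, and each also without at least 1 vehicle array. The highest adjusted p over all alternatives was 0.0769 for Ppp5c, 0.0871 for Ptges3l1, 0.0960 for Cdc37l1, 0.102 for St13, 0.135 for Hspbp1 and 0.872 for Bag6. It was 0.0917 for Dnajc13, 0.116 for Dnaja1, 0.146 for Cryab, 0.123 for Hspa2, 0.148 for Cct5 and 0.131 for Cct7. For Clpx, Clpb and Hspa9 it was 0.0634, 0.121 and 0.160, and for Serpinh1, Dnajb11 and Tra2a 0.0810, 0.0907 and 0.127. The difference of Hspa2 ran from 0.46 to 0.93 over the arrays left out. Its call was lost in 13 of 19 alternatives, among them changes of scaling and of the model. The Hspbp1 call was lost in 12 of 19, that of Hspa9 in 11, and those of Cryab and Cct7 in 10 each.

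The genes most like Hsph1 over the 9 arrays were found by the root mean square difference between profiles, each gene minus its own vehicle mean, among 3208 called genes outside the 8. The closest was Hs3st6, a heparan sulfate sulfotransferase, at 0.18 log2 units. It was followed by Cldn5, a tight junction protein of vessels, at 0.21, Prps2, an enzyme of nucleotide synthesis, at 0.23, Nab1, a transcriptional corepressor, at 0.24, and Efemp1, a matrix protein, at 0.25. Among the chaperones, Chordc1 was closest to Hsph1 at 0.32, then Dnajb1 at 0.46, Hspe1 at 0.59, Hspd1, Hsp90ab1 and Hspa4 at 0.62 to 0.63, and Hspb1 at 0.87.

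Signs of cell make-up and RNA quality moved with the higher dose. Of 9 measured macrophage markers, 9 rose at CMS50 (Cd163 was under the intensity minimum). The summed linear intensity of all 10 on the array, with Cd163, was 3130 to 3270 in vehicle, 2540 to 3920 at CMS25 and 7690 to 13000 at CMS50. Of 6 dividing-cell markers 5 rose, of 7 fibroblast and matrix markers 6 rose, and of 6 loop and distal tubule markers 4 fell, with sums of 37000 to 40300 in vehicle, 33100 to 37300 at CMS25 and 9940 to 29700 at CMS50. Proximal tubule markers, which define the tissue, were all measured, with 1 of 8 rising and 2 falling. Of 4 measured podocyte markers 2 fell, and of 5 collecting duct markers 2 fell. Of 4 measured endothelial markers 1 fell, and of 3 measured adipocyte markers 1 fell. None rose in these lists, and the 1 measured lymphocyte marker rose. Over all genes 19.6% were called higher and 11.4% lower at CMS50. No marker in any list passed the test at CMS25, and all 4 skeletal muscle markers were under the minimum. The excess of 3′ over 5′ control signal, which grows as RNA degrades, was 2.98 ± 0.16 in vehicle, 3.17 ± 0.12 at CMS25 and 3.58 ± 0.09 at CMS50 for beta-actin (log2, SD, n = 3 each). For GAPDH it was 0.542 ± 0.029, 0.698 ± 0.209 and 0.816 ± 0.062. The CMS50 excess over vehicle had an exact two-sided permutation p = 0.1 for each, the smallest that 3 against 3 arrays allow. The part of these shifts in the chaperone differences at CMS50 was not tested. Correlations between arrays ran from 0.916 to 0.989.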

How the data were processed

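Per the labels' protocols, total RNA of frozen right kidneys was labelled with biotin and read on Affymetrix rat arrays that probe the 3′ end of transcripts. Per the submitters' processing notes, the authors used RMA and Affymetrix Expression Console (no version is given in the sources used here), and the deposited values are on a log2 scale. Such a procedure makes the array distributions alike, so a shift of all genes one way cannot be seen, and small differences of dim probe sets are compressed. There were 31099 probe sets, 9 arrays and 0 missing values. Of 31042 that were not controls, 20826 were listed with 1 gene, 436 with several and 9780 with none. Each of 14217 genes was read by its probe set with the highest mean over 9 arrays, and 10337 with a mean of at least 5 were tested.

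A single limma model (version 3.58.1, R 4.3.3, lmFit with eBayes) held all 3 groups, the Benjamini-Hochberg adjustment ran over all tested genes, and a gene was called at an adjusted p under 0.05. The fit was tested on simulated data. Sequences are from RefSeq (GRCr8), and figures were drawn with matplotlib 3.10.9. The members, lists and named genes were chosen with earlier results of these data known. From each list up to 4 genes were named, those called against vehicle with arrays that do not overlap and with the largest differences, beside a fixed panel of 13 (Hsf1, Hsf2, Hspa1b, Bag3, Cryab, Hspa5, Hsp90b1, Hspa9, Stip1, Ahsa1, Dnaja1, Cct2 and Tcp1) and the 5 genes most like Hsph1. Hspa1a was named outside this rule, after its value was seen, as the copy of Hspa1b. The labels give no batch or scan day, so none was tested.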

Additional observations from a re-analysis of the deposited data

Results flagged for a closer look

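CMS50 minus CMS25 passed limma's test across all genes for 3 of 8 chaperones, beside 30.3% of all genes called in that comparison. The 8 were chosen with results of these data known, so these calls are not independent support. It was -0.405 for Hsph1, 0.4642 for Hsp90ab1 and 0.6795 for Hspb1, on the log2 scale. The call was lost in 10 of 19 alternatives for Hsph1 (adjusted p from 0.0282 to 0.155), in 3 for Hsp90ab1 (0.00699 to 0.115) and in 5 for Hspb1 (0.00124 to 0.0855). All 3 CMS50 arrays lay below all 3 CMS25 arrays for Hsph1, as in 15.3% of all genes, and above them for Hsp90ab1 and Hspb1, as in 30.4% of all genes. The second Hsp90ab1 probe set had a difference of 0.073 with overlapping arrays.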

How the results depend on the processing

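Over 19 alternatives, 9 of which left out 1 array each, 3987 values were recomputed for 212 results. Of these, 3596 kept their call or direction or stayed close in value, and 175 values or counts moved. A further 201 lost a call, 14 gained one and 1 reversed with a call. A change of sign without a call counted as kept. For example, CMS50 minus CMS25 of Chordc1 was 0.024 and ran from -0.028 to 0.088 over the leave-outs. The leave-outs kept the probe sets and genes chosen on 9 arrays. Genes called in CMS50 minus vehicle ran from 1687 to 3546 when 1 array was left out (3211 with all), and in CMS50 minus CMS25 from 1569 to 3518 (3128 with all). Calls in the chaperone lists ran from 16 to 46 (43 with all) and from 21 to 45 (44 with all), and calls in the lists between the doses were 27 with only the 2 groups compared. Members called in CMS50 minus vehicle numbered 5 with array weights and 2 to 5 over the leave-outs. In CMS50 minus CMS25 they numbered 1 with the mean of all probe sets of a gene and 0 to 3 over the leave-outs. Bag6 reversed in CMS50 minus CMS25 with the mean of all probe sets of a gene (-0.0539, against 0.3984). Causes of these shifts were not tested.

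With the replicate block, 2865 of 10337 genes were called in CMS50 minus vehicle and 2857 of 10337 in CMS50 minus CMS25. Beside the latter, 3 of the 8 members were called in CMS50 minus CMS25. Each array's deviations from its group means were correlated between same-numbered arrays. These correlations ran from -0.183 to 0.263, so the numbers were not taken to pair the rats. With 3 arrays per group, precision is limited by the number of rats, and dim probe sets are compressed towards the background.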
